A study of Oryza sativa with 12 samples.

Results

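Inorganic phosphate (Pi) leaves plant cells through PHO1 exporters, and the number of Pi transporters on the cell surface is held down by ubiquitin enzymes that send them for breakdown. The leaf RNA of 4 rice genes of these processes was examined, out of 39967 genes in the table, and the genes were chosen by identifier. PHO1;1 (Os01g0110100) and PHO1;2 (Os02g0809800) encode the exporters. NLA1 (Os07g0673200) encodes a RING-type ubiquitin ligase and PHO2 (Os05g0557700) a ubiquitin-conjugating enzyme, both acting on Pi transporters.

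The plants were rice (Oryza sativa) of cultivar ZH11, the wild type (WT), and phr2, which the labels give as a knockout of PHR2. Per the labels' protocols all plants grew on 1/2MS medium, and plants aged 3 weeks were moved to that medium lacking Pi, with leaves sampled on day 3. Each genotype was sampled without treatment (control) and without Pi (no Pi), which gives 4 groups with 3 libraries each. The labels give no allele, number of mutant lines, plants per library or harvest day for the controls, so time and handling on transfer cannot be told apart from Pi supply, and p-values measure the spread between these libraries only.

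As background, PHO1 proteins join an N-terminal SPX domain, which senses inositol pyrophosphates as a signal of Pi status, to an EXS domain. PHO1;2 loads Pi into the xylem for transfer from root to shoot in rice. PHO2 is repressed by the microRNA miR399 when Pi is scarce, and NLA1 directs Pi transporters of the PHT1 family to degradation. PHR2 is a MYB-type factor that switches on many genes of the Pi starvation response. PHO1 genes of rice also carry antisense transcripts on the opposite strand, and the one at PHO1;2 is known to raise translation of the exporter.

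Reads counted per library ranged from 10109727 to 13122430, recovered from FPKM (fragments scaled to coding length and library size). PHR2 itself was listed between 17.9 and 31.5 FPKM in the WT libraries and between 21.4 and 29.7 in the phr2 libraries, so its level does not tell the genotypes apart. Across all genes the library labelled phr2 no Pi replicate 3 correlated more closely with the WT libraries (mean Pearson r 0.904) than with its own group (0.871). Its correlation with WT no Pi replicate 2 (0.968) was the highest between any pair of libraries, so by its values this library stands closer to WT than to the group its label gives. In scale, WT control replicates 1 and 2 had the lowest values: the library size their FPKM imply was 0.674 and 0.759 times the counted reads, against 0.938 to 1.21 in the others. For some comparisons results are also given with phr2 no Pi replicate 3, with WT control replicate 1 or with both removed. Leaf markers were high everywhere: the summed FPKM of 5 Rubisco small subunit genes, of which Os12g0274700 was at 0, lay between 8234 and 43603.5. The shoot meristem gene OSH1 was at or below 0.0930 FPKM in every library.

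The 5 comparisons were the WT response and the phr2 response (no Pi minus control), the genotype difference (phr2 minus WT) in control medium and without Pi, and the difference of the responses. Of the 4 genes, 3 were measurable, and none of the 3 passed the threshold of 0.05 on the limma adjusted p (Benjamini-Hochberg over all genes tested) in any comparison. In the WT response 2.36% of 22648 genes passed, or 534. That count was 114 without both those libraries, 113 with voom, limma's method for counts run on the recovered reads, and 0 when the WT groups were fitted by themselves. With 1 library left out it ran from 0 (either replicate 2 of WT control or replicate 1 of WT no Pi removed) to 3155 (without WT control replicate 3). The ranges of the groups lay apart for 2 of 3 members, PHO1;1 lower and NLA1 higher, against 12.9% of all genes lower and 11.9% higher (24.8% in all). In the phr2 response 0% of genes passed in limma (885 had an unadjusted p under 0.05, and voom called 0, with 838 unadjusted). There the ranges lay apart for 0 members and for 9.75% of genes, 4.47% higher and 5.28% lower.

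Between genotypes in control medium 0.667% of genes passed, or 151. That count was 1178 without both libraries named above, 0 with voom or the replicate number as a block, and 0 to 770 with 1 library left out, the most without phr2 no Pi replicate 3. The ranges lay apart for 0 members and for 21% of genes, 9.18% higher and 11.8% lower in phr2. Without Pi 0% passed in limma (1963 unadjusted, and voom called 0, with 1965 unadjusted), but 269 genes passed without phr2 no Pi replicate 3 and 641 without both libraries. There the ranges lay apart for 1 member, PHO1;1, which was higher in phr2, and for 11.4% of genes, 5.96% higher and 5.46% lower. For the difference of the responses 0% passed in limma (2002 unadjusted, and voom called 0, with 1917 unadjusted). Separated ranges such as those of PHO1;1 and NLA1 in WT were thus common in this table.

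PHO1;1, an exporter gene expressed in leaves at a low level, was lower in every WT library without Pi than in any WT control library. It lies on chromosome 1 from 537710 to 543354 on the plus strand, with 1 transcript of 2400 coding bases. Its FPKM was 6.30, 4.50 and 3.13 in WT control and 1.24, 1.70 and 0.718 in WT no Pi. The ranges of the WT groups did not overlap, and every library without Pi was lower. The values were 2.50, 5.45 and 4.67 in the mutant controls and 4.29, 3.26 and 2.07 in phr2 no Pi. The mutant groups overlapped.

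These values rested on 20 to 147 reads per library. From high to low, the group means were 4.64 ± 1.59 FPKM in WT control, 4.21 ± 1.53 in phr2 control, 3.21 ± 1.11 in phr2 no Pi and 1.22 ± 0.491 in WT no Pi (SD, n = 3). The first 3 groups in that order overlapped with their neighbours, and WT no Pi lay below all of them. The difference between WT no Pi and WT control was −1.33 on the log2(FPKM + 1) scale (SE 0.38, 95% interval −2.16 to −0.50) with a limma adjusted p of 0.0778, which misses the threshold of 0.05. Leaving out WT control replicate 3 brought it past the threshold (−1.54, adjusted p = 0.0360), while leaving out WT no Pi replicate 3 gave an adjusted p of 0.285. Because fold changes were taken on log2(FPKM + 1), they understate changes of genes as low as this one. In limma's voom on the recovered reads the same difference was −1.93 (adjusted p = 0.0808). Over the 21 alternatives it ran from −1.93 to −0.94. The smallest fall, −0.94, was found after rescaling every library to the same FPKM sum and did not pass the threshold. That rescaling moved the median of all genes in this response from −0.01 to 0.41. Beyond such refits, the part of library scale in the fall of PHO1;1 was not tested.

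**Figure D1:**
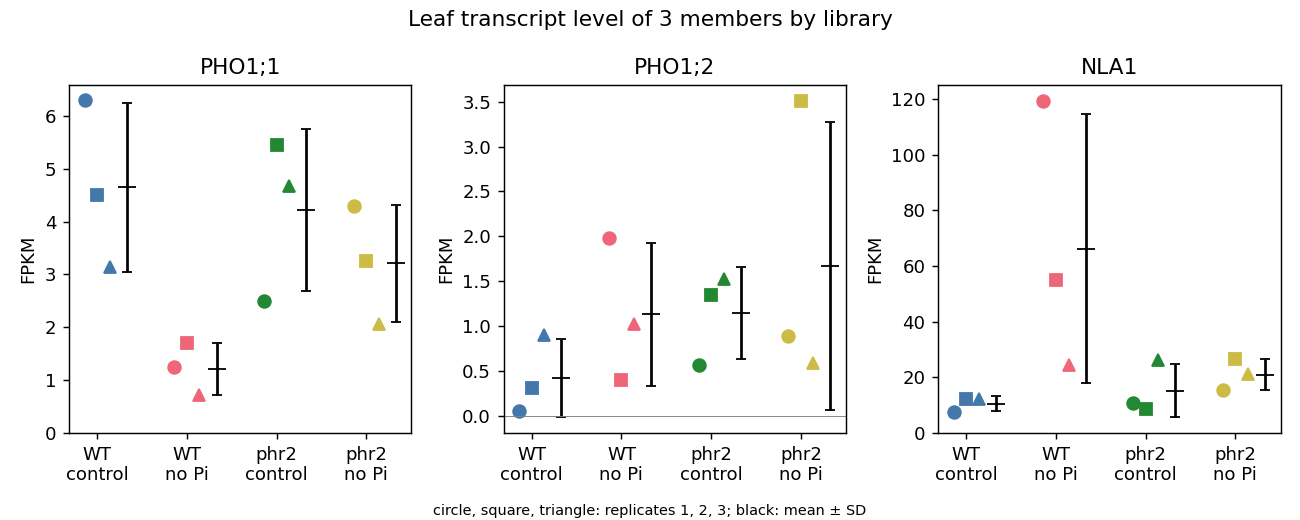
FPKM of PHO1;1, PHO1;2 and NLA1 (vertical axes, each with its own scale) in the 4 groups. Each coloured point is 1 library and the black mark is the group mean ± SD (n = 3). PHO1;1 in WT no Pi (0.718 to 1.70) lies below the other groups, and NLA1 in WT no Pi spreads from 24.4 to 119.

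In phr2 the change of PHO1;1 without Pi was −0.30 (95% interval −1.13 to 0.53, limma adjusted p = 0.998). That interval overlaps the one of the WT response. Without the library labelled phr2 no Pi replicate 3 the change of PHO1;1 in phr2 was −0.086. The difference between the responses, phr2 minus WT, was 1.04 (95% interval −0.14 to 2.21, limma adjusted p = 0.583), so the genotypes were not shown to respond unlike each other. Between genotypes in control medium PHO1;1 differed by −0.12 (SE 0.38, limma adjusted p = 0.886), a value whose sign turned when WT control replicate 1 (0.081) or phr2 control replicate 1 (0.14) was left out. Without Pi, phr2 stood 0.91 above WT (95% interval 0.08 to 1.74, limma adjusted p = 0.563) and the ranges of these groups did not overlap. Without the library labelled phr2 no Pi replicate 3 that difference was 1.12 (limma adjusted p = 0.259).

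PHO1;2, the gene for root-to-shoot transfer, was barely detected in some of the leaf libraries. It lies on chromosome 2 from 34609725 to 34615015 on the plus strand, with 1 transcript of 2448 coding bases. Its FPKM was 0.0519, 0.309 and 0.898 in WT control and 1.98, 0.401 and 1.02 in WT no Pi. It was 0.565, 1.35 and 1.53 in the mutant controls and 0.895, 3.51 and 0.593 in phr2 no Pi. The groups overlapped in all 4 pairwise comparisons, and phr2 no Pi replicate 2 was the highest library.

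The number of reads limits what can be said of PHO1;2. WT control replicate 1 held 1 read, with an exact Poisson 95% interval of 0.0253 to 5.57, and WT control replicate 2 held 7 (2.81 to 14.4). The highest library held 101 (82.3 to 123). These intervals cover counting error only. The gene entered the test because 5 libraries reached an FPKM of 1, none of them in WT control. Group means fell in the order phr2 no Pi (1.67 ± 1.60 FPKM), phr2 control (1.15 ± 0.511), WT no Pi (1.13 ± 0.797) and WT control (0.420 ± 0.434; SD, n = 3), with overlap between all neighbours.

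For PHO1;2 no comparison passed. The WT response was 0.56 on the log2(FPKM + 1) scale (95% interval −0.41 to 1.54, limma adjusted p = 0.456). The phr2 response was 0.18 (−0.79 to 1.16, limma adjusted p = 0.998). The difference between genotypes was 0.61 in control medium (limma adjusted p = 0.482) and 0.23 without Pi (limma adjusted p = 0.920), and the difference of the responses was −0.38 (95% interval −1.76 to 1.00, limma adjusted p = 0.860). The phr2 response turned to −0.27 when phr2 no Pi replicate 2 was left out and to −0.03 without phr2 control replicate 1. The genotype difference without Pi turned to −0.23 without phr2 no Pi replicate 2 and to −0.04 without WT no Pi replicate 2. Without the library labelled phr2 no Pi replicate 3 the phr2 response was 0.48 and the genotype difference without Pi 0.52.

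Per coding length, PHO1;1 was the more abundant of the exporters in 9 of 12 libraries. The ratio of PHO1;1 to PHO1;2 FPKM ran from 3.49 to 121 in WT control, where the denominator is down to 1 read, and from 0.625 to 4.24 in WT no Pi. It ran from 3.06 to 4.42 in the mutant controls and from 0.929 to 4.80 in phr2 no Pi. The libraries with PHO1;2 above PHO1;1 were WT no Pi replicates 1 and 3 and phr2 no Pi replicate 2, all without Pi. The other gene of the family, PHO1;3 (Os06g0493600), was above PHO1;1 in 8 of 12 libraries and above PHO1;2 in 11. PHO1;3 averaged 4.43 ± 0.947 FPKM in WT control, 2.04 ± 0.895 in WT no Pi, 9.22 ± 7.85 in the mutant controls and 8.82 ± 9.61 in phr2 no Pi (SD, n = 3). The mutant means rested on replicate 1 of each group, at 18.1 and 19.8 FPKM. PHO1;3 was singled out after its values were seen.

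**Figure D2:**
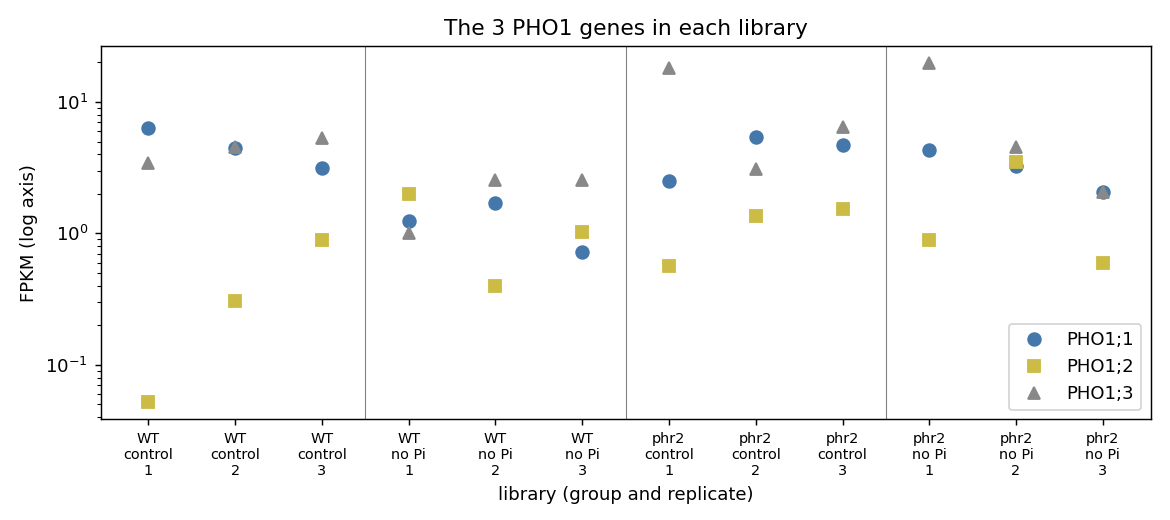
FPKM of PHO1;1, PHO1;2 and PHO1;3 (log vertical axis) in each of the 12 libraries, ordered by group and replicate on the horizontal axis. PHO1;2 is the lowest of the 3 genes in 9 libraries, and PHO1;3 is highest by far in replicate 1 of both phr2 groups.

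Antisense rows exist for all PHO1 genes, and almost no fragments were assigned to them. The row antisense to PHO1;1 (Os01g0110050, chromosome 1, 536973 to 538644, minus strand) shares 935 bases with the gene and was listed at 0 in every library. The row antisense to PHO1;2 (Os02g0809700, chromosome 2, 34609403 to 34611324, minus strand) shares 1600 bases with it and was likewise listed at 0. The third, antisense to PHO1;3 (Os06g0493700), was above 0 in 1 library, at 0.164 FPKM. Whether counting used strand is not given in the sources used here, so sense and antisense reads in the shared stretches cannot be told apart.

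NLA1 was higher in all WT libraries without Pi than in any WT control library. It lies on chromosome 7 from 28452751 to 28456565 on the minus strand, with 1 transcript of 966 coding bases. Its FPKM was 7.37, 12.2 and 12.1 in WT control and 119, 55.0 and 24.4 in WT no Pi. It was 10.7, 8.67 and 26.0 in the mutant controls and 15.3, 26.5 and 21.1 in phr2 no Pi. The WT groups did not overlap, although the libraries without Pi spread widely, and the mutant groups did overlap.

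NLA1 was the best measured of the 4 genes, with 56 to 1474 reads per library and a mean FPKM above that of 83.6% of all genes. Group means fell from 66.3 ± 48.5 FPKM in WT no Pi to 21.0 ± 5.62 in phr2 no Pi, 15.2 ± 9.49 in phr2 control and 10.6 ± 2.76 in WT control (SD, n = 3). Each group overlapped its neighbour in that order. The WT response was 2.30 on the log2(FPKM + 1) scale (SE 0.55, 95% interval 1.09 to 3.50), with a limma adjusted p of 0.0516. It therefore just missed the threshold, as rank 593 by p among 22648 genes. Leaving out WT control replicate 3 gave 2.40 (adjusted p = 0.0348), and rescaling every library to the same FPKM sum gave 2.79 (adjusted p = 0.0317), where the median of all genes was 0.41. The adjusted p rose to 0.192 without WT control replicate 2.

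**Figure D3:**
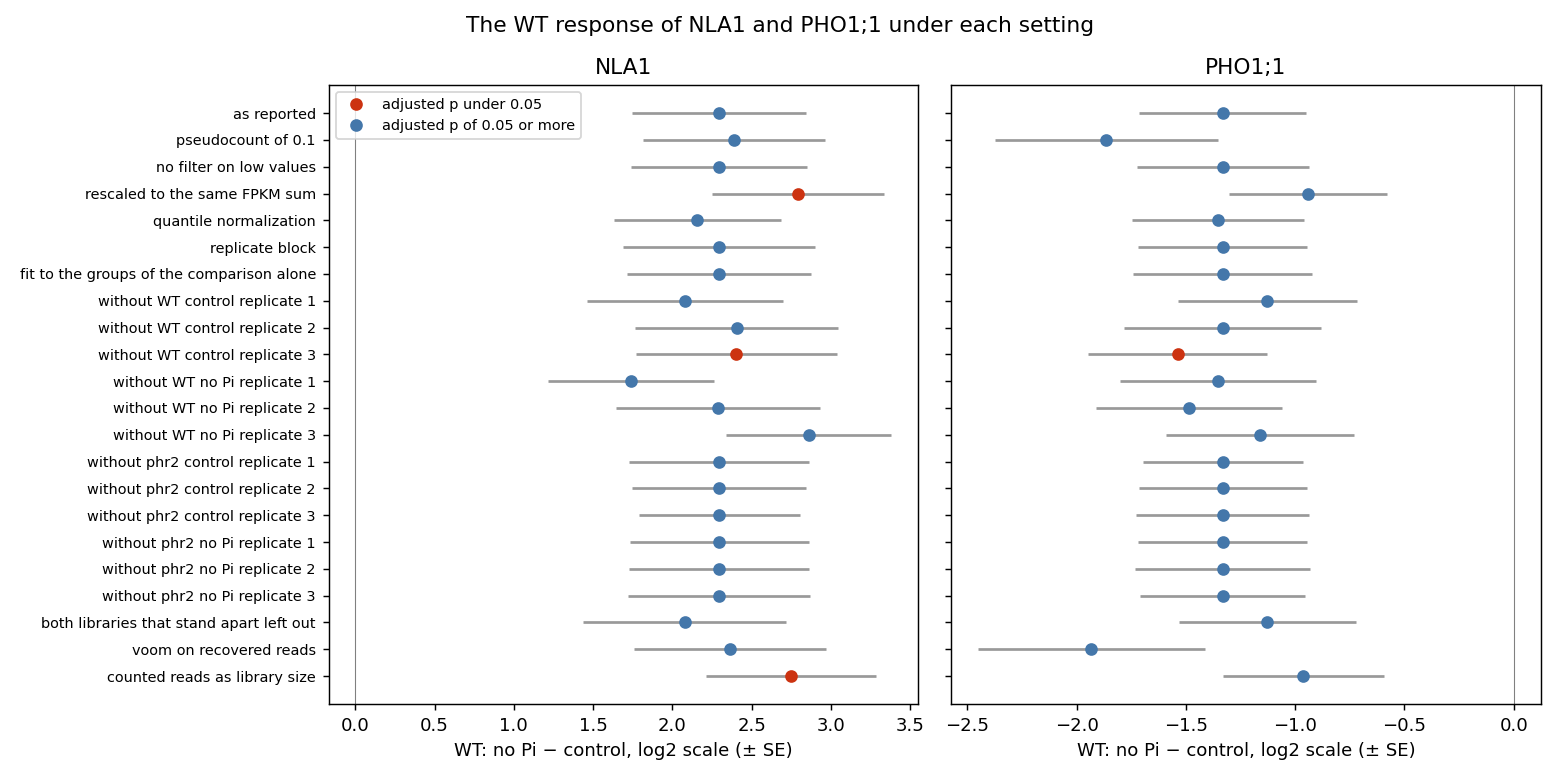
WT response (no Pi minus control, log2 scale, ± SE) of NLA1 and PHO1;1 under each setting on the vertical axis. Red points have a limma adjusted p under 0.05. NLA1 stays between 1.74 and 2.86 and passes in 3 of 21 alternatives, while PHO1;1 stays between −1.93 and −0.94 and passes in 1 of 21.

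In phr2 the response of NLA1 was 0.56 (95% interval −0.64 to 1.77, limma adjusted p = 0.998). The difference of the responses was −1.73 (95% interval −3.43 to −0.03, limma adjusted p = 0.561), which fails the correction over all genes. In control medium phr2 and WT differed by 0.36 (limma adjusted p = 0.752), and by −0.087 without phr2 control replicate 3. Without Pi phr2 lay 1.37 below WT (95% interval −2.57 to −0.17, limma adjusted p = 0.551), and the groups overlapped between 24.4 and 26.5 FPKM. Without the library labelled phr2 no Pi replicate 3 this was −1.39 (limma adjusted p = 0.371).

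**Figure D4:**
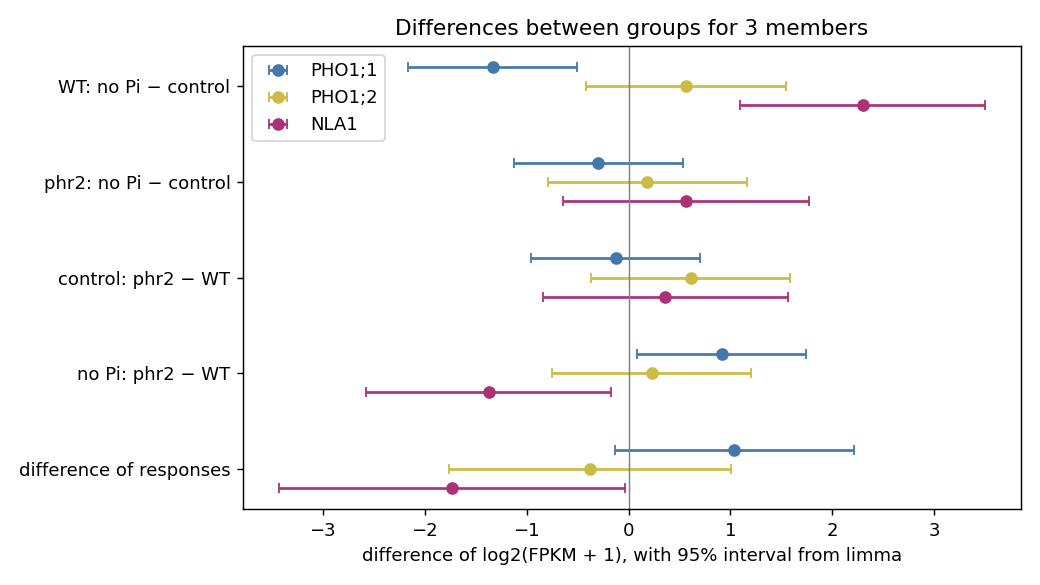
Differences of log2(FPKM + 1) with limma's 95% intervals (horizontal axis) for PHO1;1, PHO1;2 and NLA1 in the 5 comparisons (vertical axis). The WT response of NLA1 (2.30) and that of PHO1;1 (−1.33) are the largest of the no Pi minus control differences and have intervals clear of 0, before adjustment over all genes.

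PHO2 could not be measured from this table. The gene, named LEAF TIP NECROSIS 1 there, lies on chromosome 5 on the minus strand. Its transcripts run from 27740218 to 27747783 and to 27749525, and the longer is described as the isoform induced by Pi starvation. Both have 2631 coding bases, and both were listed at 0 FPKM in all 12 libraries. Of 1200 genes whose 2 transcripts have equal coding length, 1192 (99.3%) were listed at 0 in every library. The share was 9.14% of 3107 genes whose 2 transcripts differ in coding length and 20.3% of 34488 genes with 1 transcript. No level, absence or change of PHO2 is read from these zeros, and no absence is read for other genes listed at 0 throughout. The gene beside it on the same strand, UBIQUITIN-CONJUGATING ENZYME 41 (Os05g0557600), encodes a relative with 1 transcript and was singled out for its position after its values were seen. It stood at 13.7 ± 2.17 FPKM in WT control, 23.4 ± 6.80 in WT no Pi, and 21.0 ± 1.36 in phr2 control (SD, n = 3), and its phr2 no Pi libraries lay between 20.4 and 27.2. Its WT response was 0.70 (limma adjusted p = 0.170).

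The WT groups lay apart, with no test made, in the sums of the leaf markers and of LSI1 and LSI2. They overlapped in the Casparian strip genes, the phloem genes and the callose synthases. These sums were not rescaled. The implied library sizes of WT control replicates 1 and 2 were only 0.674 and 0.759 times the counted reads. Ranges of the WT groups lay apart for 24.8% of all genes. The summed FPKM of the Rubisco small subunit genes was 20930.5 to 43603.5 in WT control and 8234 to 11147 in WT no Pi, and 12414 to 23164 in phr2 no Pi against 17982 to 21111 in its control. For 27 chlorophyll a/b binding genes, of which 7 were at 0, the sums were 74507 to 133822 and 28043 to 43494 in the WT groups and 62891 to 101807 and 42891 to 95122 in the phr2 groups, controls first. Among root genes, 6 Casparian strip genes, none at 0 throughout, summed to 17.3 to 49.1 and 3.22 to 18.1 in the WT groups and 17.6 to 27.2 and 7.98 to 15.6 in the phr2 groups. LSI1 and LSI2 summed to 34.8 to 209 and 17.9 to 29.5, and to 16.7 to 53.8 and 38.0 to 53.6, with LSI2 at 0. Among phloem genes SUT1, a sucrose loader, was at 12.9 to 26.0 and 6.12 to 16.9 FPKM in WT and 6.50 to 11.0 and 12.1 to 24.8 in phr2. The sums of 17 phloem protein 2 genes, 1 at 0, were 275 to 461 and 263 to 336 in WT and 341 to 435 and 283 to 321 in phr2. Those of 19 callose synthase genes, 2 at 0, were 195 to 394 and 276 to 485 in WT and 276 to 339 and 272 to 411 in phr2. The callose synthases were matched by description alone, so their sum is not read as a phloem level. In bulk leaf RNA, fewer cells of a type and less RNA per cell cannot be told apart, and the part of these marker levels in the values of PHO1;1 and NLA1 was not tested.

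After adjustment, other genes of Pi handling passed about as often as all genes, which rests on 1 call. Of 65 other genes of Pi handling, 41 passed the filter for testing and 12 were listed at 0 throughout. As for PHO2, no absence is read from those zeros. In the WT response 0 rose, 1 fell and 40 did not pass. The share called was 2.44% beside 2.36% of all genes, with a median of 0.18 beside −0.01 for all genes. Before adjustment, 13 of the 41 had a limma p under 0.05 (31.7%, beside 25% of all genes). The gene that fell, Os03g0263400, encodes a carrier of the mitochondrial type and went from 41.0 ± 14.5 to 11.1 ± 1.52 FPKM (SD, n = 3; log2 difference −1.75, limma adjusted p = 0.0442). The gene held 41 to 188 reads per library. Its call held in 3 of 21 alternatives, with limma adjusted p between 0.0172 and 0.192 and differences between −1.96 and −1.23. The call was lost, among others, with voom (adjusted p = 0.0659), without WT control replicate 1 (0.0886), without WT control replicate 2 (0.192) and without WT no Pi replicate 3 (0.185). PHR3 (Os02g0139000), a factor of the PHR2 family, had the next smallest p (12.1 ± 4.57 and 39.1 ± 21.1 FPKM, SD, n = 3; difference 1.51, limma adjusted p = 0.0803). In the 4 other comparisons none of the 41 passed in limma. An unadjusted p under 0.05 was found for 0 of them in the phr2 response (3.91% of all genes) and for 8 in control medium (19.5%, beside 18.5% of all genes). It was found for 3 without Pi (7.32%, beside 8.67%) and for 4 in the difference of the responses (9.76%, beside 8.84%).

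By role, 7 tested genes with SPX or EXS domains, among them PHO1;3 and the SPX-MFS transporters of the vacuole, had 0 rises and 0 falls and a median of −0.68 in WT and −0.24 in phr2. The 16 tested genes of the Pi transporter list had medians of 0.10 and −0.07. Among them Os01g0279700 carries a transporter name but is described as a non-protein coding transcript. The 3 tested PHR factors had medians of 1.23 and 0.01. The 15 tested genes of turnover and traffic, which hold relatives of PHO2 and NLA1, PHF1 and casein kinase II subunits, had medians of 0.23 and 0.05. The Pi starvation RNA IPS1 (Os03g0146800) was not tested, since fewer than 3 libraries reached an FPKM of 1. It stood at 5.86 and 7.91 FPKM in replicate 1 of phr2 control and phr2 no Pi, and at most 0.905 elsewhere. It had 55 reads or fewer in every library.

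**Figure D5:**
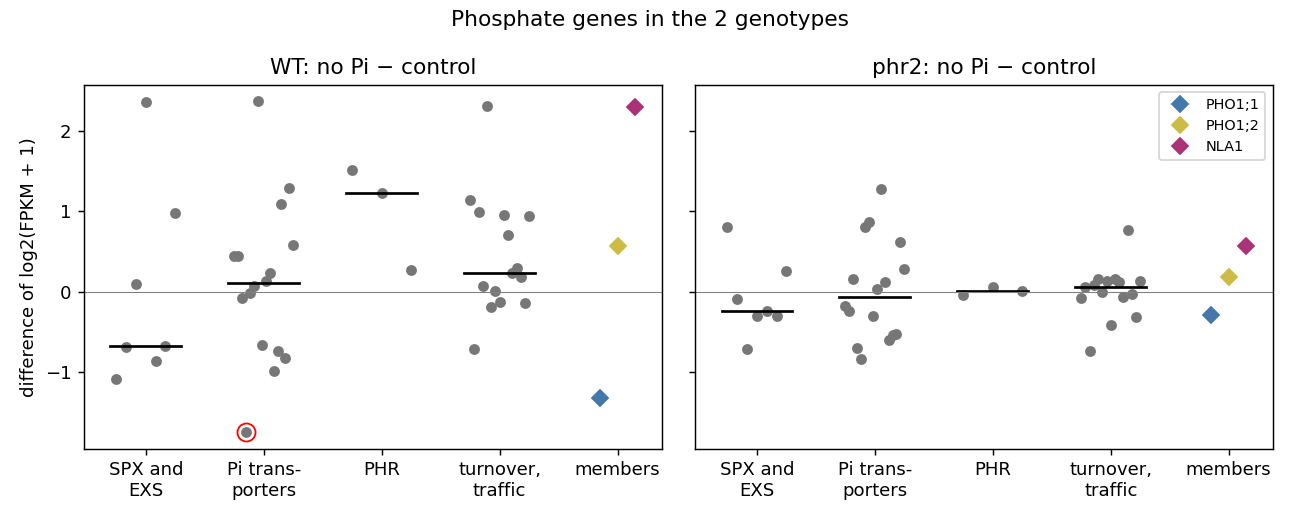
Difference of log2(FPKM + 1) between no Pi and control (vertical axis) in WT (left) and phr2 (right) for the tested genes of 4 lists (grey points, black bar at the median) and for PHO1;1, PHO1;2 and NLA1 (diamonds). The red ring marks the 1 gene past the threshold, a mitochondrial phosphate carrier at −1.75, and NLA1 in WT is at 2.30.

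A second NLA-type gene on these lists is Os03g0650900, a RING-type ubiquitin ligase described in the table as the ortholog of Arabidopsis NLA. It had the smallest p of the lists in the comparison of genotypes without Pi. Its FPKM was 14.2, 1.16 and 1.62 in WT control and 51.6, 7.77 and 22.0 in WT no Pi, which overlap. It was 1.43, 2.53 and 9.91 in the mutant controls, and the values of 5.17, 2.75 and 4.65 in phr2 no Pi all lay below those of WT no Pi. Ranges lay apart in this direction for 5.46% of all genes, and this gene was picked by its p in the same comparison. The difference between genotypes without Pi was −2.11 (SE 0.83, limma adjusted p = 0.550). Its WT response of 2.31 (SE 0.83, limma adjusted p = 0.123) did not pass either.

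Other genes with the smallest p on the lists also missed the threshold. In the comparison without Pi the gene Os06g0129400, described as a vacuolar Pi efflux transporter, followed Os03g0650900 at −2.81 (limma adjusted p = 0.572). In control medium the Pi transporter gene Os09g0556400, described as similar to PHT4;5, stood 1.11 higher in phr2 (limma adjusted p = 0.150), and the mitochondrial carrier gene Os09g0454600 differed by −2.59 (limma adjusted p = 0.154). The phr2 response was led by PHF1 (Os07g0187700), which lets Pi transporters leave the endoplasmic reticulum, at 0.77 (limma adjusted p = 0.998). The mitochondrial carrier gene Os03g0263400 followed at −0.70 (limma adjusted p = 0.998). For the difference of the responses Os09g0556400 came first at −1.63 (limma adjusted p = 0.516) and PHR3 (Os02g0139000) second at −1.56 (limma adjusted p = 0.549).

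Genes with a name or description were ranked by how closely their log2(FPKM + 1) followed each member over the 12 libraries, which share groups and scale, so the values are descriptions. PHO1;1 was followed most closely by a receptor-like cytoplasmic kinase gene (Os08g0506400), with a Pearson r of 0.982 and a Spearman rho of 0.993. The cytochrome gene P-450 81L6 (Os02g0504000) came next at 0.979, and then PURPLE ACID PHOSPHATASE 10D (Os12g0637200), whose family releases Pi from organic compounds, at 0.962. NLA1 was followed by a DUF833 gene (Os09g0323500) at 0.935, a plastid acyltransferase-like gene (Os01g0361500) at 0.930 and the NAC factor YELLOW 37 (Os06g0675600), described as a promoter of senescence, at 0.905.

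PHO1;2 was followed less closely, by the HD-ZIP III factor LATERAL FLORET 1 (Os03g0109400) at 0.868, AUXIN RESPONSE FACTOR 17 (Os06g0677800) at 0.866 and the gibberellin enzyme gene ENT-COPALYL DIPHOSPHATE SYNTHASE 1 (Os02g0278700) at 0.864. Without WT control replicate 1 and phr2 no Pi replicate 3, the 3 values for PHO1;2 lay between 0.816 and 0.838. Among the members themselves, the Pearson r over 12 libraries was −0.68 between PHO1;1 and NLA1, −0.17 between PHO1;1 and PHO1;2 and 0.44 between PHO1;2 and NLA1.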

How the data were processed

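RNA of 12 leaf libraries was sequenced, and the authors deposited 1 table of FPKM with 46947 transcript rows and 1 column per library. Tools named in the submitters' processing notes are Bowtie 0.12.2, StringTie 1.3.0 and HISAT2 2.0. The build named there, mm8, is a mouse build, while the rows carry rice identifiers. Neither the rice assembly nor any strand setting is given in the sources used here. Coordinates and names are those of the table. Lengths in the table are multiples of 3 in 93.8% of protein-coding rows, so FPKM is per coding length.

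FPKM was summed over the transcripts of a gene, and a gene was tested if 3 or more libraries reached an FPKM of 1, which left 22648. Values entered limma (version 3.58.1, R version 4.3.3) as log2(FPKM + 1). The fit had 4 group means over all libraries, a trend of variance on level, and 8 residual and 3.78 prior degrees of freedom. Adjusted p is Benjamini-Hochberg over all genes tested, with a threshold of 0.05. FPKM times length gave whole fragments, called reads, for at least 99.98% of values per library at a tolerance of 0.01. The library size implied by FPKM was 0.674 to 1.21 times the sum of those reads. Alternatives were another pseudocount, no filter, 3 other scalings, a replicate block, 2-group fits, left-out libraries and limma's voom, run on the reads with trimmed-mean scaling factors. Replicate numbers were not treated as pairs: of 18 same-numbered pairs of libraries, 5 had deviations correlated above 0.1. The same-numbered pairs ran from −0.43 to 0.30, and differently numbered pairs reached 0.35.

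The members and lists were chosen with earlier results of these data known. Lists were matched by words in the table's names and descriptions, except that the 4 PHR factors, Os03g0650900 and IPS1 were set by identifier. Substrates of casein kinase were left out. Named genes are the members, the 3 genes most like each by Pearson r, and the 2 list genes with the smallest p in each comparison; others are marked as singled out. Plots used matplotlib 3.10.9 under Python 3.11.15. No reference sequences were used here.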

Additional observations from a re-analysis of the deposited data

How the results depend on the processing

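Of 312 recomputed differences for PHO1;1, PHO1;2 and NLA1 over the 5 comparisons, 297 kept both direction and side of the threshold, 4 moved past it and 11 turned sign. In several settings the direction could not change: no filter, the replicate block, 2-group fits and leaving out a library of a group outside the comparison. Those settings alter only the spread or the correction. As no difference passed as reported, keeping the side meant still not passing. The WT response of NLA1 passed after rescaling to the same FPKM sum (2.79) and with the counted reads as library size (2.75, adjusted p = 0.0288, a choice made after seeing the data). Leaving out 1 library at a time gave 1.74 to 2.86 for NLA1 and −1.54 to −1.13 for PHO1;1 in that response. For PHO1;1 the value of −1.13 was the one without WT control replicate 1. The difference of PHO1;1 between genotypes in control medium turned to 0.21 after rescaling, 0.22 with counted reads as library size and 0.081 without WT control replicate 1 and phr2 no Pi replicate 3, and ran from −0.33 to 0.14 with 1 library left out. That of NLA1 ran from −0.087 to 0.65 with 1 library left out. For PHO1;2 the phr2 response ran from −0.27 to 0.48 and the genotype difference without Pi from −0.23 to 0.52, and its difference of responses turned to 0.11 without both those libraries. All these PHO1;2 values had adjusted p above 0.05. The causes were not tested. Over the same alternatives, run on the lists after seeing the data, 0 to 6 of the list genes were called in the WT response and 0 in each other comparison. With the replicate block, which in a balanced design cannot move an estimate, limma adjusted p in the WT response was 0.0776 for NLA1 and 0.0954 for PHO1;1, where there was no call to lose. Of 36 best matches between libraries of different groups, each picked among 3 libraries, 11 fell on the same number.

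Counts of all genes called moved widely. In the WT response 534 became 86 without a filter, 1094 after rescaling, 241 with quantile normalization, 174 with the replicate block, 0 when the WT groups were fitted by themselves, 114 without both libraries named above, 113 with voom and 1291 with counted reads as library size, and 0 to 3155 with 1 library left out. In control medium 151 became 6 without a filter, 5 with quantile normalization, 274 in a fit to its groups alone, 1178 without both libraries and 0 after rescaling, with the replicate block, with voom and with counted reads as library size, and 0 to 770 with 1 library left out. The phr2 response gave 1 without a filter, 1 in its own groups and 0 to 33 with 1 left out. Without Pi the count was 641 without both libraries and 0 to 269 with 1 left out, and the difference of responses gave 0 to 26. Using 1 transcript in place of the sum was not run, since PHO2 is listed at 0 for both. Depth limits PHO1;2 most, at 1 to 101 reads.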

Other observations

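Of the 65 list genes, 5 had their highest levels in replicate 1 of phr2 control and of phr2 no Pi, above all 10 other libraries, a pattern noticed after the values were seen. The share of all genes with this pattern was not counted, so it is not read as a trait of Pi genes. PHO1;3 (Os06g0493600) stood at 18.1 and 19.8 FPKM there and between 1.01 and 6.46 elsewhere. The SPX-MFS gene Os02g0678200 stood at 258 and 180 FPKM, against 10.9 to 92.6 elsewhere. The others were low: the Pi starvation RNA IPS1 (Os03g0146800) had 43 and 55 reads against 0 to 6, SPX5 (Os03g0406100) 53 and 46 against 0 to 13, and SPX2 (Os02g0202200) 16 and 11 against 0 to 3. PHO1;1 and PHO1;2 were not at their highest in those libraries, at 2.50 and 4.29 FPKM for PHO1;1 and 0.565 and 0.895 for PHO1;2.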
